A study of Mus musculus with 20 samples.

Results

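The genes described here are receptors for the constant region of antibodies, the signalling chain these receptors share, and C-type lectin receptors of phagocytes: Fcgr1, Fcgr2b, Fcgr3, Fcgr4, Fcer1g, Clec4d, Clec4e, Clec7a, Clec12a and Clec5a. These 10 genes were taken by symbol from the platform annotation, out of 18193 genes with a probe set of their own. A probe set is a group of short probes on the array that reads 1 transcript. Probe sets were found for 9 of the 10 genes, 15 probe sets in all, and Clec12a is not analysed here. The study measured sorted blood cells of wild-type female C57Bl/6 CD45.1 mice, 12 to 14 weeks old per the labels, and asked which genes mark each of 10 hematopoietic cell types. Each type had 2 arrays. The myeloid types were granulocytes and monocytes, and the erythroid type was nucleated erythrocytes, precursors of red cells. The lymphoid types were B cells, natural killer cells (NK), and CD4 and CD8 T cells, each either naive or activated, which the labels ascribe to an LPS treatment. Long-term hematopoietic stem cells (LT-HSC) completed the set. An array held material of 4 pooled samples, with 25000 to 50000 cells sorted by flow cytometry and 2 rounds of RNA amplification, so p-values rest on how far such pools differ, not single mice.

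Antibodies bound to a particle are read by phagocytes and NK cells through Fc gamma receptors. Fcgr1, Fcgr3 and Fcgr4 are activating: each pairs with the FcR gamma chain, the product of Fcer1g, whose tyrosine motif (ITAM) is phosphorylated by Src family kinases and then recruits the kinase Syk. Fcgr2b is the inhibitory member, carries its own inhibitory motif (ITIM), and is the Fc gamma receptor of B cells. The lectins read microbial sugars and lipids or dying cells. Clec4d and Clec4e (Mincle) bind mycobacterial glycolipids and also signal through the FcR gamma chain, Clec7a binds fungal beta-glucan and recruits Syk through a motif of its own, Clec5a pairs with the adaptor Tyrobp, and Clec12a is an inhibitory lectin. The same adaptor chains thus serve antibody receptors and lectins, which is why they are read side by side.

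The promoters are shown for the 6 genes that were higher in each phagocyte type than in each other type, followed by Fcgr2b and Fcer1g, which were not. In each line the last 130 bases before the annotated start are given 5′ to 3′ on the gene's strand (RefSeq, build GRCm38.p6). Capitals mark the letters GAGGAA, the core that the myeloid factor PU.1 is known to bind, and TTGCNNAA, a form of the letters that C/EBP factors bind, each searched on both strands.
Fcgr3, chr1:171059395-171059524, minus strand: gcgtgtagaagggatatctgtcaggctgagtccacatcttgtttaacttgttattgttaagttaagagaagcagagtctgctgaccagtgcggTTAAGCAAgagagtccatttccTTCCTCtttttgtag
Fcgr4, chr1:171018796-171018925, plus strand: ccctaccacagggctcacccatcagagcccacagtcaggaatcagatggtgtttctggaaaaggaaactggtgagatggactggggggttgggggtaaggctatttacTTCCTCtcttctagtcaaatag
Clec4d, chr6:123261977-123262106, plus strand: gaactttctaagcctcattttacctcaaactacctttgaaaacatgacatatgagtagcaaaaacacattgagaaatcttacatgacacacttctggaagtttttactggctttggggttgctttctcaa
Clec4e, chr6:123289872-123290001, minus strand: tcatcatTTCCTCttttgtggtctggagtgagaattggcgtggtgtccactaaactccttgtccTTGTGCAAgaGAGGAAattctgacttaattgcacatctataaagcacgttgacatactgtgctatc
Clec7a, chr6:129472780-129472909, minus strand: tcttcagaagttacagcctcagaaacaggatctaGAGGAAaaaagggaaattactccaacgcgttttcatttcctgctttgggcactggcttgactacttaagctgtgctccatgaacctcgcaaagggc
Clec5a, chr6:40585806-40585935, minus strand: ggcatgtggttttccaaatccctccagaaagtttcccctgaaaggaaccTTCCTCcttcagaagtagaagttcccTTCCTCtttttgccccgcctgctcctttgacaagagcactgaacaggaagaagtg
Fcgr2b, chr1:170976072-170976201, minus strand: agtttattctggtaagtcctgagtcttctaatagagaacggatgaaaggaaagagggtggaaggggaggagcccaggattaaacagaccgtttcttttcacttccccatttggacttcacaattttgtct
Fcer1g, chr1:171234350-171234479, minus strand: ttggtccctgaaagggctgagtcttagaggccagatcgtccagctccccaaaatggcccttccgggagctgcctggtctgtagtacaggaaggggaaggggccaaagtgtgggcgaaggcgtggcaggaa
Over 250 bases before the start, GAGGAA was found for 8 of the 10 genes, against 25.9% of 27025 genes in the promoter table (23.3% of 32851 annotated starts). These 8 are the first 6 genes shown, Fcgr1 and Clec12a. Fcgr1 holds GAGGAA 50 to 55 bases before the start but read 4.61 or less in every array, and Clec12a was not analysed. TTGCNNAA was found for Fcgr3, Clec4e and Clec12a, 3 of the 10 genes, against 10.8% of genes. The line of Clec4d holds no capitals, since its match lies 235 to 240 bases before the start, outside the stretch shown. In Clec4e the letters lay close to each other, with GAGGAA 51 to 56 and TTGCNNAA 59 to 66 bases before the start. Fcgr3 and Clec7a have 2 annotated starts each, and the lines show 1 of them. Neither set of letters was found within 250 bases for Fcgr2b and Fcer1g, which says only that these letters are not in that window. The matches are descriptions and no binding was measured.

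Values are log2 expression values (GCRMA), and a value under a log2 of 5 is treated as near background. Levels are compared between cell types for 1 probe set, never between probe sets. Across 9810 genes tested the 2 arrays of a type correlated between 0.945 in monocytes and 0.988 in B cells. A few label checks bear on these genes. The monocyte arrays held Csf1r, which binds macrophage growth factor, at 13.95 and 13.71 (granulocytes at 12.59 and 12.89), but Ccr2, a chemokine receptor of classical monocytes, at 5.11 and 6.07, and the neutrophil granule gene Ngp at 11.77 and 11.30. Eif2s3y, a Y-linked gene, read 10.73 to 12.84 in both arrays of activated CD4 and activated CD8 T cells and in the naive CD4 and naive CD8 arrays numbered 1, and at most 3.45 elsewhere, although the labels give female mice. Naive CD8 array 1 is titled CD48+ but has CD8+ as its source name, and it held Cd8a at 13.44. A list of 14 neutrophil markers, 12 of them with a probe set, averaged 9.19 and 10.42 in the nucleated erythrocyte arrays and 5.19 in naive CD4 array 2, against 3.03 to 3.53 in the other 13 arrays outside monocytes and granulocytes. It averaged 11.79 and 12.17 in monocytes and 14.12 and 14.3 in granulocytes, so both myeloid types carried neutrophil markers. Its member Csf3r was higher in monocytes (13.71 and 13.5 against 11.44 and 11.3), while Ltf was lower (7.72 and 8.97 against 15.04 and 15.46). A list of 13 monocyte markers, 11 with a probe set, averaged 8.11 and 9.3 in monocytes and 7.76 and 7.4 in granulocytes. Outside these 2 types it averaged 6.09 to 7.78, the highest in NK array 1, so the list sets monocytes apart only weakly. Its members went both ways: Nr4a1 was higher in monocytes (13.22 and 12.01 against 5.04 and 5.19), and Fn1 was lower (7.15 and 9.38 against 10.71 and 10.32).

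Monocytes and granulocytes carried the highest level of every gene tested here except Fcgr2b. Set against the mean of the other 8 types, 8 of 8 tested genes were higher in the mean of the 2 phagocyte types, where 20.7% of all 9810 genes tested were higher. The median log2 difference was 7.94 over the 8 genes and -0.41 over all genes tested. Fcgr4 and Clec5a passed the filter on low values only through their monocyte and granulocyte arrays and so had to differ. The genes were chosen with earlier results of these data known, so the share over all genes is given for scale only. Every difference below is from a limma fit over all 20 arrays, with ± its standard error (SE), 2 arrays a type, and p-values adjusted by Benjamini-Hochberg over 9810 genes. To be called, a gene needed a log2 difference of 1 or more and an adjusted p below 0.05. Because these are bulk samples, a lower value may mean fewer cells of a type or less RNA per cell, which cannot be told apart.

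**Figure D1:**
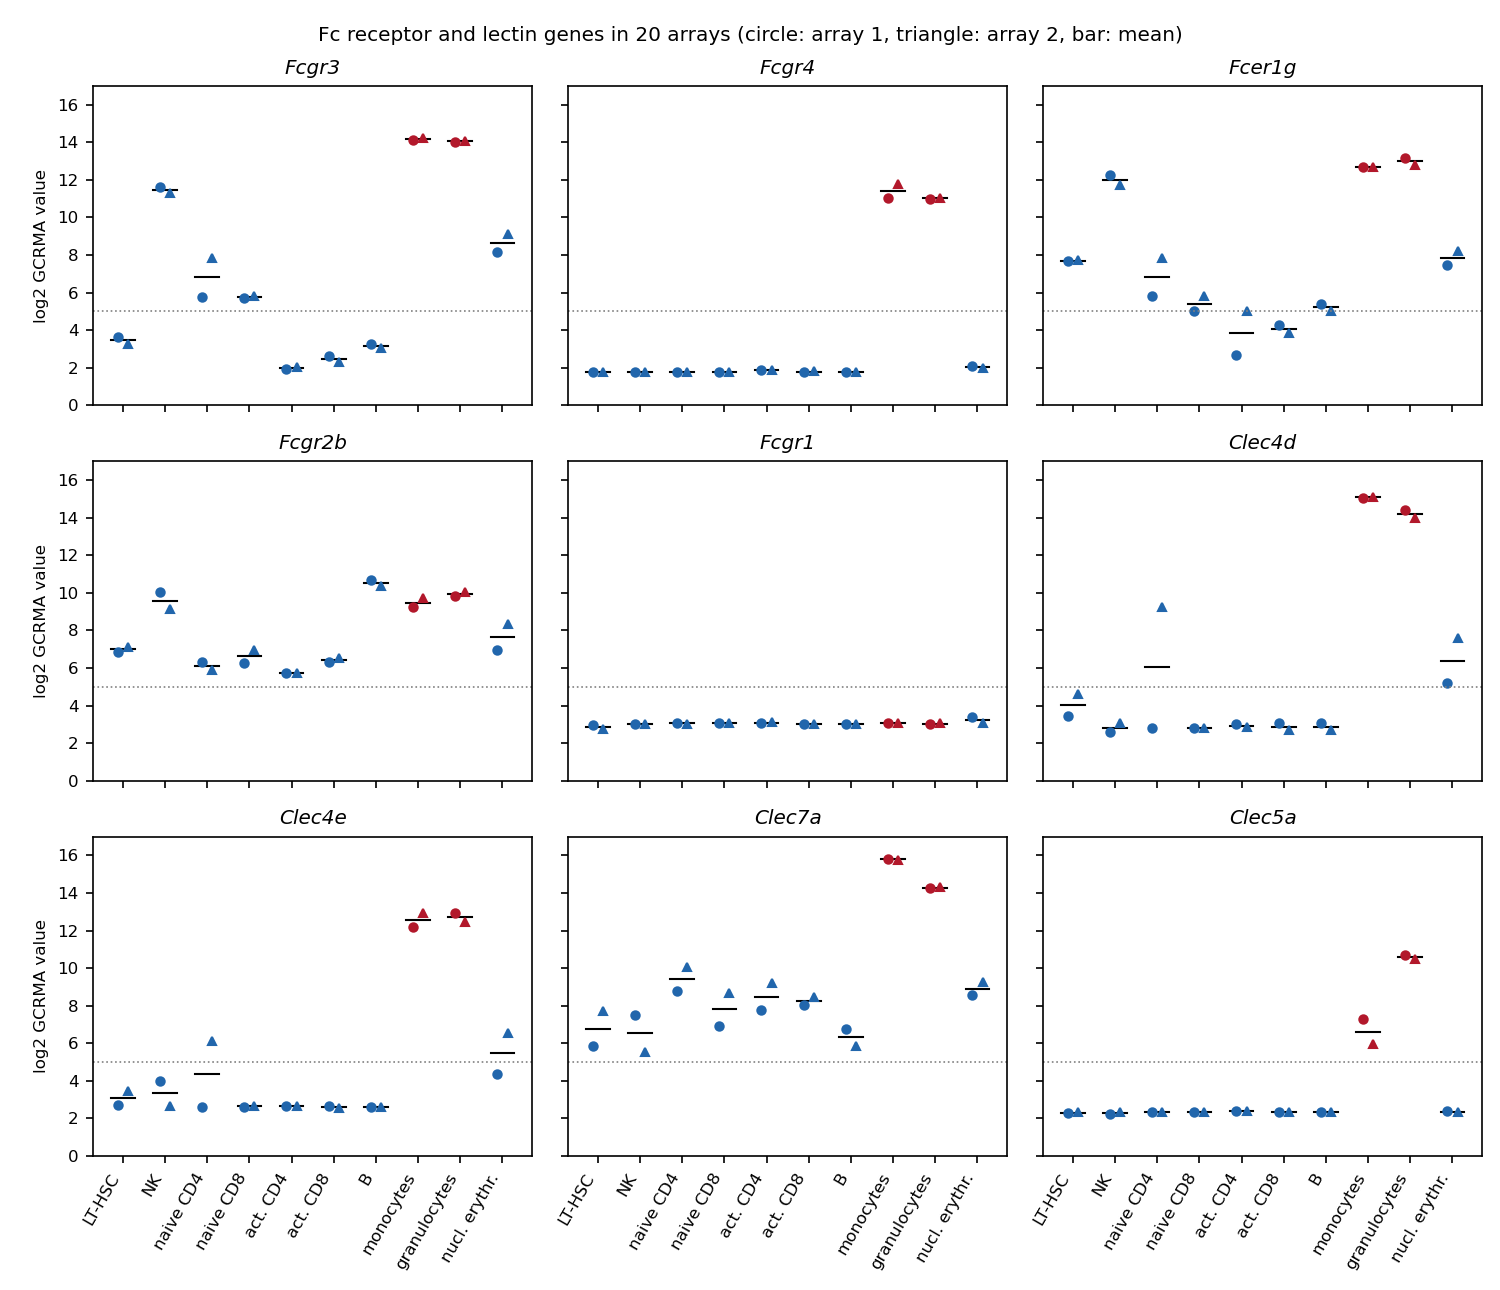
Log2 GCRMA value (vertical axis) of the main probe set of 9 genes in 10 cell types (horizontal axis), with array 1 as a circle, array 2 as a triangle, the mean as a bar, monocytes and granulocytes in red and the dotted line at 5. Fcgr4 and Clec5a read at most 2.40 outside the 2 phagocyte types, Fcgr3 and Fcer1g are also high in NK cells, and Fcgr2b is highest in B cells.

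Fcgr3, the low-affinity activating IgG receptor, read 14.15 and 14.23 in monocytes, 14.03 and 14.09 in granulocytes, and 11.65 and 11.28 in NK cells. Nucleated erythrocytes followed at 8.19 and 9.11, naive CD4 T cells at 5.79 and 7.84, and naive CD8 T cells at 5.69 and 5.82. The remaining arrays lay under 5: LT-HSC at 3.66 and 3.27, B cells at 3.24 and 3.05, activated CD8 T cells at 2.64 and 2.29 and activated CD4 T cells at 1.96 and 2.02. Among the types above 5, the arrays of neighbours in that order overlapped only between the naive CD4 and naive CD8 groups, and the 4 types under 5 have no order. The phagocyte mean exceeded the other types by 8.66 ± 0.27 (adjusted p = 8.9e-12), and each phagocyte type exceeded each other type by at least 2.60 ± 0.49, the gap from granulocytes to NK cells (adjusted p = 0.0029).

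Fcgr4, an activating receptor for mouse IgG subclasses, showed a sharper split. It read 11.04 and 11.77 in monocytes and 11.01 and 11.03 in granulocytes, and between 1.75 and 2.09 in the 16 other arrays. NK cells, which were high for Fcgr3, read 1.76 and 1.77. The difference was 9.39 ± 0.12 (adjusted p = 1.88e-15), and against such low values its size depends on how GCRMA sets the background. Fcgr1, the high-affinity receptor, was at background: its probe set 1436625_at read 2.74 to 3.38 in all 20 arrays, and 1417876_at read at most 2.51 except in monocyte array 2, at 4.61. Monocyte array 1 read 2.15 for the same probe set. No array passed 5, so Fcgr1 was not tested.

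Fcer1g, the shared signalling chain, was highest in the same 3 types as Fcgr3. It read 13.19 and 12.81 in granulocytes, 12.69 and 12.69 in monocytes, and 12.26 and 11.71 in NK cells. A second tier held nucleated erythrocytes at 7.49 and 8.22, LT-HSC at 7.67 and 7.73 and naive CD4 T cells at 5.81 and 7.86, whose arrays overlap. Naive CD8 T cells (5.0 and 5.81) and B cells (5.42 and 5.0) lay near background, and activated CD8 (4.27 and 3.86) and activated CD4 T cells (2.70 and 5.03) at it. The phagocyte mean exceeded the other types by 6.23 ± 0.38 (adjusted p = 6.23e-09). Monocytes exceeded NK cells by only 0.71 ± 0.69, which was not called (adjusted p = 1).

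Fcgr2b, the inhibitory receptor, had another order. B cells were highest at 10.66 and 10.36, followed by granulocytes at 9.82 and 10.06, NK cells at 10.02 and 9.14 and monocytes at 9.24 and 9.71. Arrays of the last 3 types overlapped, whereas B cells did not overlap with granulocytes. Nucleated erythrocytes read 6.96 and 8.34, LT-HSC 6.86 and 7.11, and the 8 T cell arrays 5.71 to 6.98. The phagocyte mean was 2.26 ± 0.23 above the other 8 types (4.78-fold, adjusted p = 1.01e-06), although B cells lay 1.04 ± 0.42 above monocytes.

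**Figure D2:**
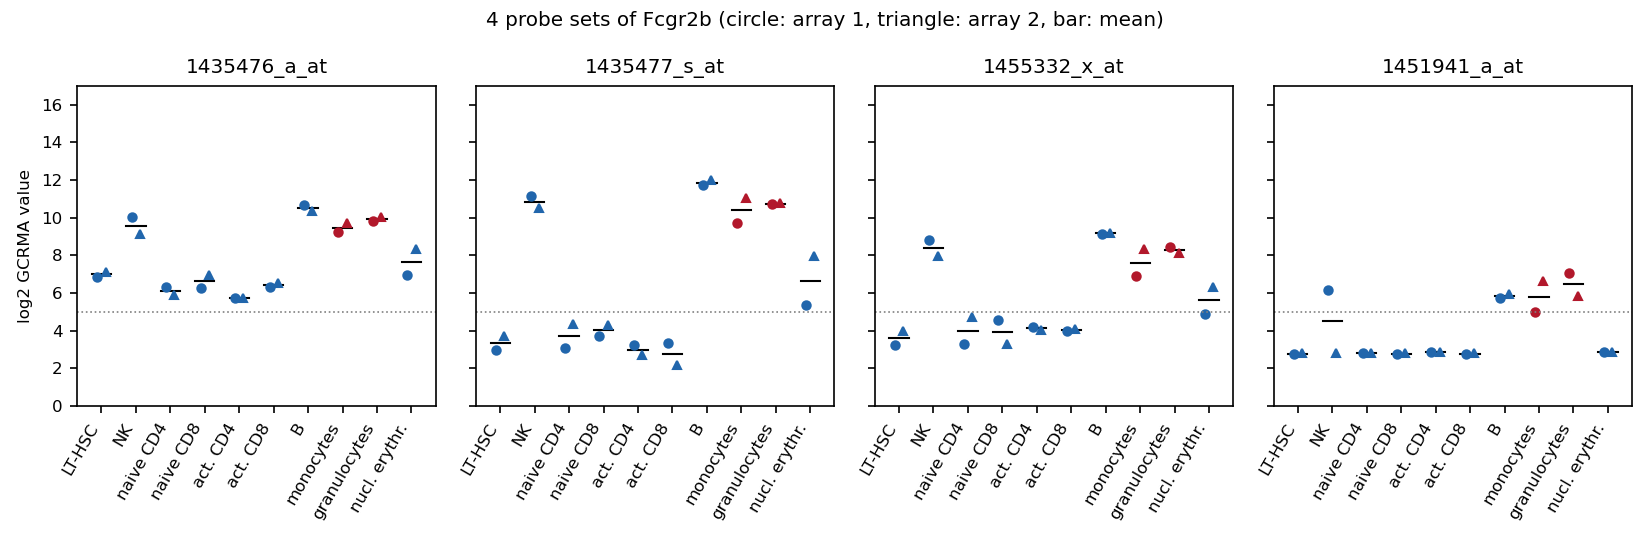
Log2 GCRMA value (vertical axis) of 4 probe sets of Fcgr2b in 10 cell types (horizontal axis), with array 1 as a circle, array 2 as a triangle and the mean as a bar. B cells, NK cells, monocytes and granulocytes are high in the first 3 panels, and T cells read at most 4.71 with 1435477_s_at and 1455332_x_at.

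Fcgr2b was read by 5 probe sets, and 4 of them passed the filter. The probe set 1435477_s_at read 11.74 and 11.98 in B cells, 11.17 and 10.50 in NK cells, 9.73 and 11.07 in monocytes and 10.70 and 10.80 in granulocytes. It was at most 4.36 in T cells and 3.74 in LT-HSC, and 5.35 and 7.95 in nucleated erythrocytes. With it, the phagocyte difference was 4.81 ± 0.41, against 2.59 ± 0.34 for 1455332_x_at and 2.73 ± 0.44 for 1451941_a_at in a fit over 18726 probe sets (all with an adjusted p of at most 9.28e-05). The last probe set, 1447622_at, read at most 2.32 in any array. The coding regions of Fcgr2b and Fcgr3 are closely alike. The suffixes of 1435477_s_at and 1455332_x_at mark probes that can match transcripts of several genes. Those of 1435476_a_at, the main probe set, and 1451941_a_at mark several transcripts of the same gene. How far the Fcgr2b values hold signal of a relative is uncertain and was not tested. B cells read 10.36 or more for Fcgr2b with Fcgr3 at 3.24 or less.

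Clec4d and Clec4e, which lie next to each other on chromosome 6 (RefSeq gene order), were high in both phagocyte types and low in most others. Clec4d was read by 1 probe set, 1420804_s_at, whose suffix marks probes that can match transcripts of several genes. How far its values hold signal of a related lectin was not tested. Clec4d read 15.06 and 15.11 in monocytes and 14.39 and 13.99 in granulocytes. Nucleated erythrocytes read 5.18 and 7.59, and naive CD4 T cells 2.81 in array 1 and 9.25 in array 2. LT-HSC read 3.43 and 4.61, and the other 10 arrays 2.60 to 3.07. Its phagocyte difference was 10.79 ± 0.77 (adjusted p = 2.83e-08), and its smallest gap, from granulocytes to nucleated erythrocytes, 7.81 ± 1.38 (adjusted p = 0.0019). Without naive CD4 array 1 the smallest gap was 4.94, to the remaining naive CD4 array (adjusted p = 0.000613).

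Clec4e read 12.21 and 12.94 in monocytes and 12.93 and 12.48 in granulocytes, so the 2 types overlapped. It followed Clec4d elsewhere: 4.38 and 6.56 in nucleated erythrocytes, 2.63 and 6.10 in naive CD4 T cells, and 2.58 to 4.01 in the other 12 arrays. Its phagocyte difference was 9.29 ± 0.50 (adjusted p = 1.56e-09). The second probe set, 1420331_at, read 9.86 to 10.98 in the phagocyte arrays and at most 3.75 in the other 16, with 3.22 in naive CD4 array 2 and 3.21 and 3.33 in the erythrocyte arrays. The values of Clec4e above 5 in naive CD4 array 2 and erythrocyte array 2 were therefore seen with 1 of its 2 probe sets.

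Clec7a, the beta-glucan receptor, stood above 5 in all 20 arrays. It read 15.82 and 15.76 in monocytes and 14.25 and 14.34 in granulocytes. Naive CD4 T cells (8.77 and 10.07), nucleated erythrocytes (8.56 and 9.26), activated CD4 T cells (7.77 and 9.19), activated CD8 T cells (8.04 and 8.48) and naive CD8 T cells (6.95 and 8.66) overlapped in that order. LT-HSC (5.84 and 7.71), NK cells (7.53 and 5.53) and B cells (6.79 and 5.87) were lowest and overlapped too. The phagocyte difference was 7.23 ± 0.44 (adjusted p = 5.84e-09). Among the 8 other types, the 2 arrays of a type lay up to 2.00 apart, in NK cells.

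Clec5a, an activating receptor that pairs with Tyrobp, was the gene called between the 2 phagocyte types in the fit over all arrays. Granulocytes read 10.72 and 10.51 and monocytes 7.28 and 5.97, and no other array exceeded 2.40. The phagocyte difference was 6.28 ± 0.17 (adjusted p = 2.32e-12).

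Each of monocytes and granulocytes exceeded each of the other 8 types for 6 of the 8 genes tested, where 3.85% of all genes tested did so: Fcgr3, Fcgr4, Clec4d, Clec4e, Clec7a and Clec5a. The exceptions were Fcgr2b, with B cells higher, and Fcer1g, with NK cells close. For Fcgr4 and Clec5a, which passed the filter only through phagocyte arrays, the outcome was largely fixed in advance. The genes were also chosen with earlier results of these data known, so the share over all genes is given for scale only. Between the 2 phagocyte types, 1 of 8 genes was called, against 24.3% of all genes tested in either direction. Clec5a was lower in monocytes by 3.99 ± 0.31 (15.9-fold, adjusted p = 8.87e-07). A fit of the 4 phagocyte arrays alone called 411 of all genes tested in place of 2387, and there the adjusted p of Clec5a was 0.0584. Clec7a was 1.5 ± 0.79 higher in monocytes (adjusted p = 0.192), with no overlap of arrays, and in that same smaller fit it was called (adjusted p = 0.0488). The other 6 genes differed by 0.90 or less and were not called. No gene here was higher in monocytes than in each of the other 9 types (1.37% of all genes tested were), and Clec5a alone was higher in granulocytes than in each of the other 9 (1.99% of all genes tested were). The 2 monocyte arrays differed in Clec5a by 1.31. A list of 14 LPS and NF-kB response genes averaged 10.41 in monocyte array 1 and 8.06 in monocyte array 2, and its part in the Clec5a values was not tested. Other traits also differed between these arrays. The 5 prime control probe set of Gapdh read 4.08 and 6.0 in monocytes and 8.26 and 8.23 in granulocytes. A list of 7 erythroid markers, 5 with a probe set, averaged 2.52 and 2.41 in monocytes, with none above 5, and 7.30 and 5.87 in granulocytes, with 3 and 2 above 5. A list of 5 eosinophil markers averaged 4.33 and 4.27 in monocytes and 6.82 and 6.28 in granulocytes. Its members went both ways. Epx, eosinophil peroxidase, read 1.97 and 1.97 in monocytes and 10.18 and 9.49 in granulocytes, and Prg2 read 2.56 and 2.53, then 9.16 and 7.71. Siglecf was higher in monocytes (11.24 and 10.68 against 8.93 and 8.41), and Ccr3 and Il5ra were under 5 in both types. The part of these traits in the result was not tested.

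**Figure D3:**
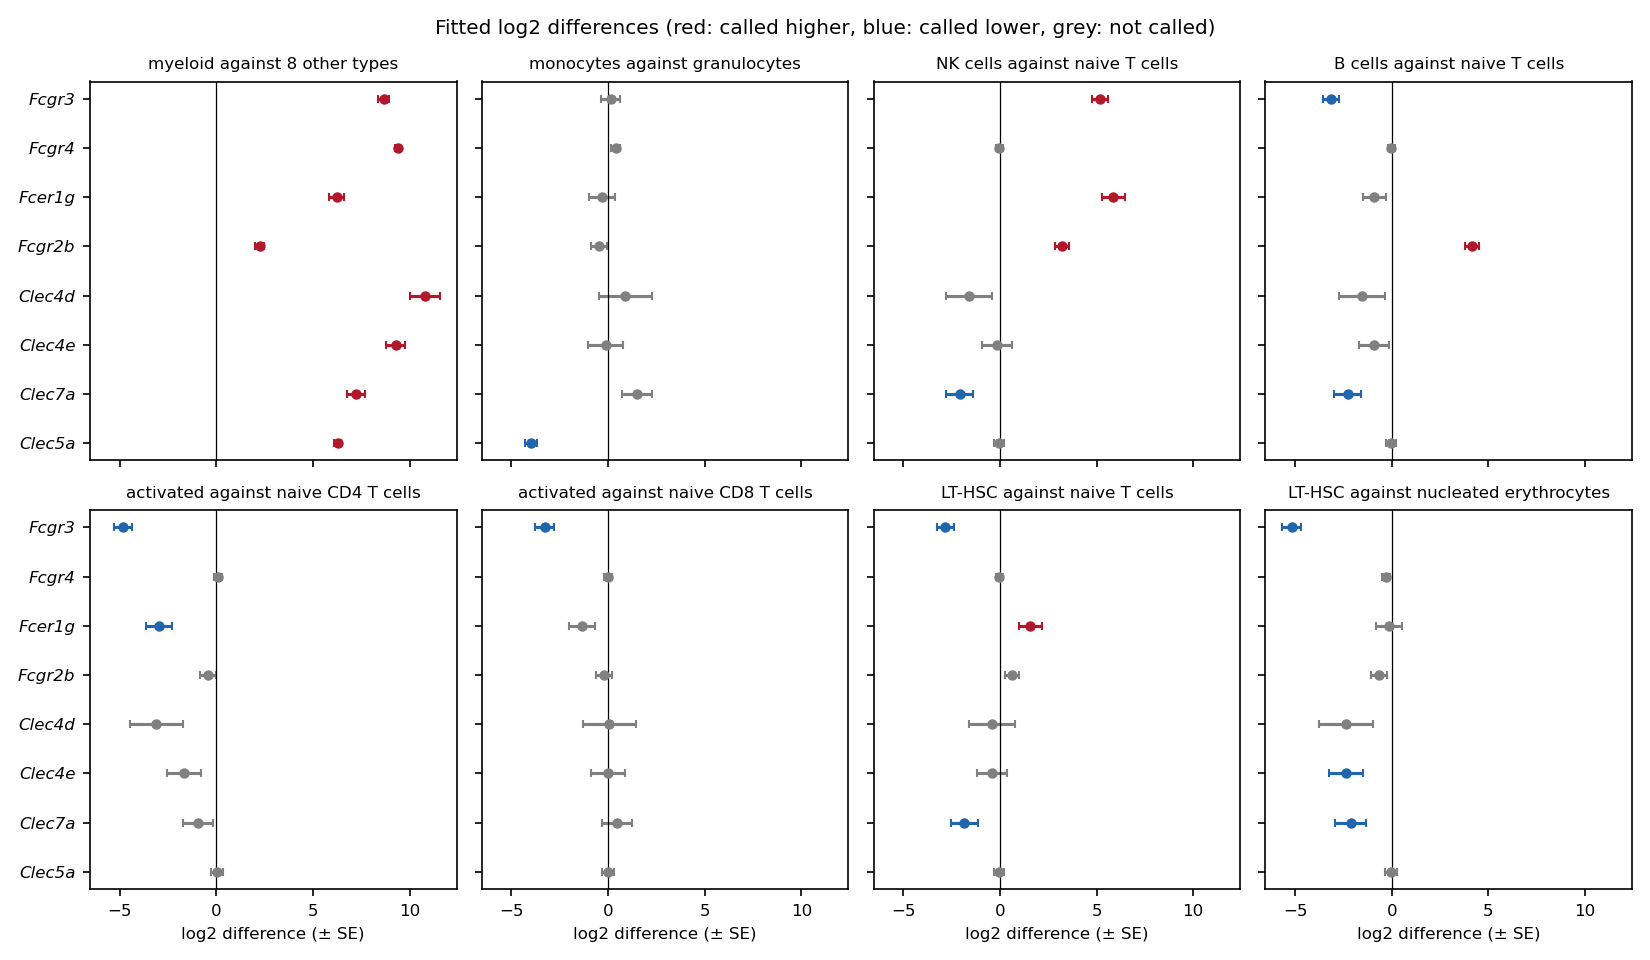
Fitted log2 difference with its SE (horizontal axis) of the 8 tested genes (vertical axis) in 8 comparisons, first minus second group, with called genes in red (higher) or blue (lower) and the others in grey. The phagocyte differences run from 2.26 to 10.79, Clec5a separates granulocytes from monocytes, and Fcgr3 is called in 7 of the 8 panels.

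NK cells were high for Fcer1g, Fcgr3 and Fcgr2b and near background for Fcgr4, Clec4d, Clec4e and Clec5a. Against the mean of naive CD4 and naive CD8 T cells, Fcer1g was higher by 5.87 ± 0.59 (adjusted p = 7.84e-06), Fcgr3 by 5.18 ± 0.42 (adjusted p = 9.25e-07) and Fcgr2b by 3.2 ± 0.36 (adjusted p = 2.1e-05). Clec7a was lower by 2.08 ± 0.69 (log2 difference -2.08, adjusted p = 0.0467), a call lost in 18 of 34 alternatives, with -1.76 and an adjusted p of 0.120 without naive CD4 array 2. These 4 calls of 8 genes compare with 17.3% of all genes tested in either direction. Clec4d, Clec4e, Fcgr4 and Clec5a were not called, and NK cells read 4.01 or less for each of them. For Fcgr2b, the probe set 1435477_s_at gave 6.97 ± 0.64 and 1451941_a_at 1.70 ± 0.68, the last not called (adjusted p = 0.1045), with NK arrays at 6.15 and 2.84.

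B cells carried Fcgr2b without the activating receptors. Against naive T cells Fcgr2b was higher by 4.13 ± 0.36 (17.5-fold, adjusted p = 1.45e-06), and the 3 other probe sets that passed the filter gave 3.05 to 8.0, each called. Fcgr3 was lower in B cells by 3.14 (log2 difference -3.14 ± 0.42, adjusted p = 9.55e-05), with B cells at 3.24 and 3.05 and naive T cells at 5.69 to 7.84. Clec7a was lower too (-2.28 ± 0.69, adjusted p = 0.0329), a call lost without naive CD4 array 2 (-1.96, adjusted p = 0.0912). These 3 calls compare with 16% of all genes tested. Without naive CD4 array 1 the number of calls was 5. Fcer1g, at 5.42 and 5.0 in B cells, did not pass (-0.91 ± 0.59, adjusted p = 0.365).

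Activated T cells read lower than naive T cells for Fcgr3. In CD4 T cells it went from 5.79 and 7.84 to 1.96 and 2.02, a log2 difference of -4.83 ± 0.49 (adjusted p = 9.96e-06), and in CD8 T cells from 5.69 and 5.82 to 2.64 and 2.29 (-3.29 ± 0.49, adjusted p = 0.000237). Fcer1g was lower in activated CD4 T cells (-2.97 ± 0.69, adjusted p = 0.0041) and was not called in CD8 T cells (-1.34 ± 0.69, adjusted p = 0.158). The calls number 2 of 8 genes in CD4 T cells, against 33.1% of all genes tested, and 1 of 8 in CD8 T cells, against 30.0%. Neither share exceeds the background. Without naive CD4 array 2, Fcgr3 kept its call at -3.80 (adjusted p = 2.12e-05), while Fcer1g read -1.95 (adjusted p = 0.0575) and Clec4d moved from -3.10 to 0.13. Fcer1g also lost its call without activated CD4 array 1 (-1.81, adjusted p = 0.0638). The change in CD4 minus that in CD8 T cells was tested as an interaction: it was -1.54 ± 0.69 for Fcgr3 (limma, adjusted p = 0.775). Since Fcgr3 was under 5 in both activated groups, this value mostly compares the naive levels, with naive CD4 array 2 the highest at 7.84. No gene described here passed, while 65 of all genes tested did at an adjusted p below 0.05.

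The naive and activated T cell arrays differed in other ways that move with these values. A list of 8 macrophage markers averaged 4.07 to 5.06 in the naive and 3.19 to 3.48 in the activated arrays. C1qb, a complement gene on that list, read 7.31 to 9.48 and 5.84 to 7.08. The list members C1qa, C1qc, Mertk and Marco stayed at 2.96 or less in all of these arrays. Vcam1, also on the list, read 6.42 to 7.56 in the naive and 2.88 to 3.70 in the activated arrays. Cd68 read 3.21 to 7.26 and then 2.34 to 2.98, and Adgre1 4.96 to 7.56 and then 5.24 to 5.41. In LT-HSC, C1qb read 7.37 and 10.71 and Vcam1 6.54 and 9.27. The 5 prime control probe set of Gapdh, a sign of how long the amplified RNA was, read 3.89 to 4.45 in naive and 7.42 to 8.81 in activated arrays. The Y-linked signal was in all 4 activated arrays and in the naive arrays numbered 1. Against those 2 naive arrays alone, which share the signal, Fcgr3 differed by -3.80 in CD4 and -3.23 in CD8 T cells. Each of these differences rests on 1 naive array. Xist, a transcript of female cells, read 4.28 in naive CD4 array 1 and 9.88 in naive CD8 array 1. In the activated arrays it read 3.93 and 8.14 (CD4) and 2.23 and 8.99 (CD8). The arrays that share the Y-linked signal were thus not alike in Xist. The part of sex, of the macrophage markers and of RNA length in these results was not tested.

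LT-HSC were low for most of this group. Against naive T cells, Fcer1g was higher by 1.58 ± 0.59 (adjusted p = 0.0409), Fcgr3 was lower (-2.82 ± 0.42, adjusted p = 9.74e-05) and Clec7a was lower (-1.84 ± 0.69, adjusted p = 0.0395). These 3 calls of 8 compare with 41.8% of all genes tested. The calls of Fcer1g and Clec7a were lost in 12 and 10 of 34 alternatives, among them the fit without LT-HSC array 1, where only Fcgr3 was called. Against nucleated erythrocytes Fcgr3 (-5.19 ± 0.49, adjusted p = 8.94e-07), Clec4e (-2.38 ± 0.89, adjusted p = 0.0341) and Clec7a (-2.14 ± 0.79, adjusted p = 0.0335) were lower in LT-HSC, 3 of 8 against 52.7% of all genes tested. Without erythrocyte array 2, Fcgr3 kept its call at -4.73 (adjusted p = 2.51e-05), Clec4e read -1.29 (adjusted p = 0.313) and Clec7a -1.79 (adjusted p = 0.159). The second probe set of Clec4e read 3.75 or less in both types, near background, and so bears on no difference. Fcgr2b, not called by its main probe set (-0.67 ± 0.42), was lower by 1435477_s_at (-3.30 ± 0.74, adjusted p = 0.0020) and by 1455332_x_at (-1.99 ± 0.62, adjusted p = 0.0150). Without LT-HSC array 1, Clec7a read -1.20 (adjusted p = 0.304) and Clec4e -2.03 (adjusted p = 0.158).

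Outside the phagocytes, signal of Clec4d and Clec4e and, NK cells aside, of Fcgr3 was highest in arrays that also carried neutrophil markers. In naive CD4 array 2 the neutrophil calcium-binding genes S100a8 and S100a9 read 10.75 and 10.68 and Lcn2, a granule protein, 8.83. There 5 of 12 markers were above 5, while the granule genes Ltf and Camp, also on the list, read 2.14 and 2.43. In the monocyte arrays Ltf read 7.72 and 8.97 and Camp 5.09 and 3.83. Naive CD4 array 1 read 3.45, 3.05 and 2.73 for S100a8, S100a9 and Lcn2 and had 1 of 12 above 5. In the nucleated erythrocyte arrays 9 of 12 markers were above 5, with S100a9 at 14.17 and 15.59 and Ltf at 11.65 and 13.37. In granulocytes and monocytes the list averaged 14.12 and 14.30, and 11.79 and 12.17. Fcgr4 and Clec5a, which read 11.01 or more and 10.51 or more in granulocytes, stayed at 2.09 or below and at 2.38 or below in the erythrocyte arrays and in naive CD4 array 2. The part of other cells in these values was not tested. Leaving out naive CD4 array 2 moved the phagocyte differences of Clec4d to 11.20 and of Fcgr3 to 8.78, and leaving out erythrocyte array 2 moved them to 10.94 and 8.71, each still called.

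**Figure D4:**
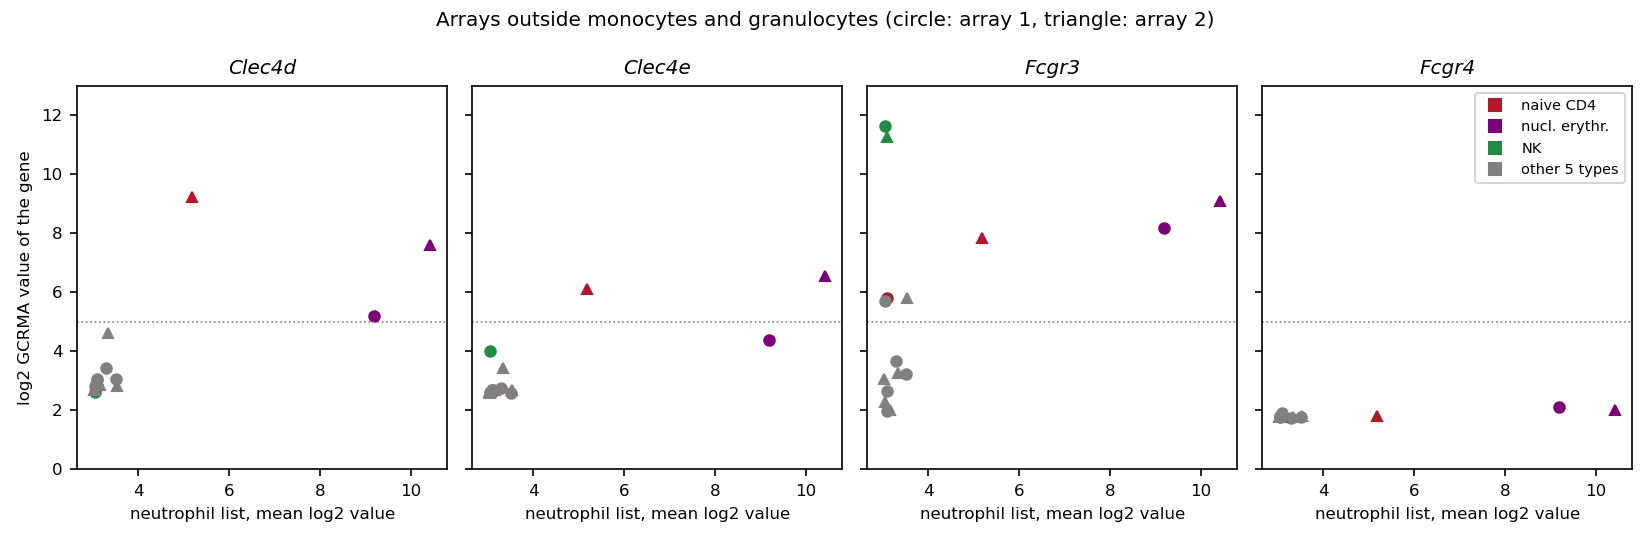
Log2 GCRMA value of Clec4d, Clec4e, Fcgr3 and Fcgr4 (vertical axis) against the mean log2 value of 12 neutrophil markers (horizontal axis) in the 16 arrays outside monocytes and granulocytes, with array 1 as a circle, array 2 as a triangle, naive CD4 T cells in red, nucleated erythrocytes in purple, NK cells in green and the dotted line at 5. Naive CD4 array 2 and both erythrocyte arrays lie to the right, at 5.19, 9.19 and 10.42; Fcgr3 is also high in NK cells without these markers, and Fcgr4 is at background throughout.

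The wider pathway was read with lists of other genes, described by counts only. Of 15 tested ITAM adaptor partners and kinases, 13 were higher and 1 lower in the phagocyte mean, with a median of 3.15. Over all genes tested the median was -0.41, and 20.7% were called higher and 53.7% in either direction. Among them were Fgr, a Src family kinase (7.45 ± 0.27), Tyrobp, the adaptor of Clec5a (6.60 ± 0.44), Syk (4.82 ± 0.25) and Prkcd, a kinase between Syk and Card9 in lectin signalling (3.90 ± 0.22). Malt1, a scaffold in the lectin pathway to NF-kB, was not called (-0.39 ± 0.15). Among 8 inhibitory phosphatases and adaptors 3 were higher and none lower: Dok3 (3.21 ± 0.14), Ptpn6, the phosphatase SHP1 (2.35 ± 0.26), and Inpp5d, the lipid phosphatase that Fcgr2b recruits (1.53 ± 0.11). Among 11 other C-type lectins 7 were higher, led by Clec4a2 (8.44 ± 0.38) and Clec1b (7.09 ± 0.56), and none lower. All 13 of the other tested activating and inhibitory receptors of myeloid cells were higher, led by Trem3 (10.16 ± 0.25) and Sirpb1a (10.08 ± 0.21), with a median of 6.90. The lectin and receptor lists were drawn up for myeloid cells, and all lists with earlier results of these data known. Their counts were thus largely set in advance. Of 6 other Fc receptors tested none was called: Fcmr, the IgM receptor (-0.97 ± 0.16), and Fcer2a, the low-affinity IgE receptor (-0.62 ± 0.27), were at 13.46 and 14.16 in B cells and at 5.62 or below in every other type.

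Part of the signalling list was also higher in NK cells: Syk (4.94 ± 0.38), Tyrobp (4.62 ± 0.68), Plcg2, a phospholipase below Syk (3.68 ± 0.29), and Fgr (2.01 ± 0.42) were among 5 of 15 called higher against naive T cells, and none was lower, where 17.3% of all genes tested were called. In B cells 5 of 6 other Fc receptors were higher than in naive T cells, led by Fcmr (9.91 ± 0.25) and Fcer2a (9.04 ± 0.42), where 16% of all genes tested were called. Dok3, Ptpn6 and Inpp5d were higher by 3.47 ± 0.22, 1.93 ± 0.40 and 1.45 ± 0.17. Tyrobp was not called there (-1.16 ± 0.68). Between monocytes and granulocytes the other lectins went both ways, with 3 of 11 higher and 3 lower in monocytes, where 24.3% of all genes tested were called. Clec4n, the fungal mannan receptor Dectin-2, was higher (3.85 ± 0.67) and Olr1 (-4.71 ± 0.58) and Ly75 (-3.65 ± 0.43) were lower. In activated against naive T cells Tyrobp was lower in CD4 (-5.35 ± 0.78) and CD8 T cells (-4.24 ± 0.78), within 7 of 15 and 4 of 15 of its list called lower and none higher, against 33.1% and 30.0% of all genes tested called in either direction. The second of these list shares lies below the background.

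The genes cluster in the genome, and their neighbours were read from RefSeq gene order. Since 53.7% of all genes tested were called in the phagocyte comparison in either direction, the few neighbours are given as values only. Between Fcgr2b and Fcer1g on chromosome 1, where Fcgr4 and Fcgr3 also lie, there are 7 other genes, of which 2 were tested and both were lower in the phagocyte mean (Sdhc, -1.19 ± 0.28, and Tomm40l, -1.72 ± 0.40). Beside Clec4d and Clec4e on chromosome 6, the 2 tested of 8 neighbours were both lectins and both higher, Clec4a2 and Clec4n (5.38 ± 0.38). Between Clec12a and Clec7a, on the same chromosome, Clec1b (7.09 ± 0.56) and Clec12b (1.51 ± 0.19) were higher and Clec1a was not called (0.81 ± 0.44).

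Over the 10 cell type means the 8 genes resembled each other to different degrees, given here as a description in which the points share arrays. Pearson's r ranged from 0.296, between Fcgr2b and Clec7a, to 0.993, between Clec4d and Clec4e, and 9 of 28 pairs exceeded 0.9. Fcgr3 and Fcer1g reached 0.947, whereas Fcgr4 and Fcer1g reached 0.746. Of 9434 other genes, the 2 most like each gene were Xdh (0.967) and Tyrobp (0.963) for Fcgr3, Sos2 (0.988) and Arap3 (0.971) for Fcer1g, and Rnf216 (0.95) and Setd2 (0.944) for Fcgr2b. They were Sirpa (0.993) and Hdc (0.992) for Clec4d, Sirpa (0.997) and Mcemp1 (0.994) for Clec4e, and Cage1 (0.982) and Mefv (0.975) for Clec7a. For Fcgr4 they were Ankrd66 and Lhx1 (both 0.999), and for Clec5a Rin2 and Ifnlr1 (both 0.999). The number of genes above 0.95 was 133 for Fcgr4 and 73 for Clec5a, which are at background outside the phagocytes. It was 111 for Clec4e, 91 for Clec4d and 46 for Clec7a, and 3 for Fcgr3, 4 for Fcer1g and 1 for Fcgr2b.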

How the data were processed

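The authors deposited log2 expression values made with GCRMA, per the submitters' processing notes, for 45101 probe sets on 20 arrays. GCRMA corrects background, normalizes between arrays and summarises probes. Its version is not given in the sources used here, nor whether all arrays were processed together. No further normalization was applied. Of the probe sets, 34945 had 1 symbol in the platform annotation. A gene was read by its probe set with the highest mean, and tested if at least 2 arrays exceeded a log2 of 5, which kept 9810 of 18193 genes and 8 of the 10 described. limma 3.58.1 (lmFit and eBayes, R 4.3.3) fitted 1 mean per cell type over 20 arrays (10 residual degrees of freedom). Contrasts were 2-sided. For a comparison of a type with each other type, the largest one-sided p was adjusted. The members and gene lists were chosen with earlier results of these data known. All 10 genes are named in every contrast, up to 4 called and 2 uncalled genes of each list by size and p, and the 2 most correlated genes of each member. The fit was tested on simulated data. Promoters and gene order are from RefSeq GRCm38.p6. The number of arrays limits precision. Alternatives covered filters, probe sets, scaling, weights, the samples fitted, a replicate block and each array left out.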

Additional observations from a re-analysis of the deposited data

How the results depend on the processing

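Of 11 counts of genes called, 7 stayed within 1.5 times their value in every one of up to 34 alternatives, those for the phagocyte comparisons among them. For monocytes against granulocytes the count stayed at 1, but in a fit of only the groups compared the gene called was Clec7a, not Clec5a. LT-HSC against naive T cells gave 1 call in place of 3 with no filter on low values, with array weights and in a fit of only the groups compared, and 1 to 3 with 1 array left out. LT-HSC against nucleated erythrocytes gave 1 in place of 3 with no filter and in a fit of only the groups compared, and 1 to 4 with 1 array left out. B cells against naive T cells gave 2 to 5 in place of 3 with 1 array left out. Activated against naive CD4 T cells gave 1 in place of 2 in a fit of only the groups compared, without both naive arrays numbered 2, and without naive CD4 array 2 and erythrocyte array 2 (chosen after seeing the data). It gave 4 without both naive arrays numbered 1, and 1 to 4 with 1 array left out. The replicate block changed none of the 11 counts, with 8 calls in the phagocyte comparison, and same-numbered arrays deviated together (r above 0.1) in 9 of 45 pairs of types (median r -0.0028), which falls short of a pairing over all types. In naive T cells the Y-linked signal followed the number.

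Of 57 differences of single genes, 33 kept their direction and side of the threshold throughout, and 13 changed sign somewhere, none of them called in the fit of all arrays. With 1 array left out, those that changed sign ranged as follows. Clec4d against naive T cells ran from -3.21 to 0.015 in NK cells, from -3.16 to 0.06 in B cells and from -2.01 to 1.21 in LT-HSC, and from -6.32 to 0.13 in activated against naive CD4 T cells. Clec4e ran from -1.03 to 0.71 in NK cells and from -1.29 to 0.45 in LT-HSC, both against naive T cells, from -3.42 to 0.055 in activated against naive CD4 T cells, and from -0.50 to 0.24 in monocytes against granulocytes. In LT-HSC against nucleated erythrocytes Fcgr2b ran from -1.36 to 0.025 and Fcer1g from -0.52 to 0.21, and in activated against naive CD8 T cells Fcgr2b ran from -0.56 to 0.13 and Clec7a from -0.40 to 1.31. For Clec4d and Clec4e in the T cell comparisons, the sign turned without naive CD4 array 2, and for the erythrocyte comparison without erythrocyte array 2. It also turned for Clec4e in NK cells without NK array 2 (0.50), and for Clec4d in LT-HSC without LT-HSC array 1. Leaving out naive CD4 array 2 and erythrocyte array 2 together gave the upper values above again. The value of 1.21 for Clec4d in LT-HSC then compared arrays that all read 4.61 or less, near background, and so shows no difference. Leaving out both naive arrays numbered 2 also gave the upper values for Clec4d and, apart from 0.73 in NK cells and 0.47 in LT-HSC, for Clec4e. Averaging all probe sets of a gene gave 0.048 for Clec4e and -0.06 for Fcgr2b in LT-HSC against naive T cells, and 0.17 for Clec4e in monocytes against granulocytes. The cause of these changes of sign was not tested.

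Quantile normalization moved the median of all genes by 0.12 in the phagocyte comparison and by -0.18 in LT-HSC against nucleated erythrocytes, and changed none of the counts above by more than 1.5 times. Monocytes against granulocytes had 2387 genes called over all genes, 1496 with array weights, 411 in a fit of the 4 arrays alone and 1580 without granulocyte array 1. The monocyte-specific count of 134 genes was 77 with array weights and 75 without monocyte array 1. The granulocyte-specific count of 195 was 70 and 90 without either granulocyte array, and NK cells against naive T cells went from 1697 to 1027 without NK array 1. Values under a log2 of 5 cannot show a difference, and 2 arrays a type limit what is called.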
